A study of Mus musculus with 28 samples.

Results

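The growth hormone and IGF1 axis of the mouse liver was followed through 10 genes in livers of wild-type mice and of mice that overexpress SIRT6. The genes were the receptor *Ghr*, its signal carrier *Stat5b*, the feedback inhibitors *Socs2* and *Cish*, the transcriptional repressors *Bcl6* and *Cux2*, the hormone gene *Igf1*, and the carriers *Igfals*, *Igfbp1*, and *Igfbp2*. They were chosen by name, and each was found as 1 of the 49585 features of the count table through its Ensembl identifier. All 10 passed the filter on low counts that left 21583 genes for testing. The livers came from C57BL/6JOlaHsd mice of 5 to 7 months, males and females, some of them wild type (WT) and the others carrying a *Sirt6* transgene (SIRT6-tg), with 7 mice in each of the 4 groups. SIRT6-tg mice carried the transgene in the whole body, came from a single transgenic line, and were compared with WT littermates. All mice were on a chow diet, were fasted for some hours, and were killed in the afternoon. The question was how the levels of these genes differ between genotypes in each sex, and between the sexes.

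Growth hormone from the pituitary binds its receptor on hepatocytes and activates the kinase JAK2, which phosphorylates STAT5B. STAT5B then enters the nucleus and turns on *Igf1*, *Igfals*, *Socs2*, *Cish*, and many other genes. The liver is the main source of circulating IGF1, most of which travels in a complex with a binding protein and with the acid-labile subunit, the product of *Igfals*. In rodents growth hormone is released in sharp pulses in males and more evenly in females, and this pattern sets a large part of the sex differences of liver gene expression. BCL6 and CUX2 are repressors downstream of these patterns, BCL6 known for repressing female-biased genes in male liver and CUX2 for repressing male-biased genes in female liver. *Igfbp1* is a target of FoxO factors and is turned down by insulin.

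Levels are given in CPM, the usual unit of a gene's deposited read count relative to the total of its library, scaled between libraries by TMM, a method that assumes that most genes do not change. Library totals lay between 18758863 and 35393069 counts. *Sirt6*, the targeted gene, was at 1.69 to 3.24 CPM in WT males and at 198 to 358 CPM in SIRT6-tg males, and at 1.81 to 6.21 CPM in WT females and 16.4 to 50.2 CPM in SIRT6-tg females, so every library matched its labelled genotype. The log2 fold change of *Sirt6* in males was 3.29 above that in females (SE 0.35, edgeR adjusted p = 6.96e-06). Where the male and female genotype effects are compared, sex and the level of *Sirt6* therefore cannot be told apart. Hepatocyte markers were abundant in every library, with 15 secreted hepatocyte proteins adding up to 128471 to 242727 CPM. In SIRT6-tg males 8 of these 15 genes were higher and 0 lower than in WT males, with sums of 128471 to 166366 CPM in WT and 152189 to 207575 CPM in SIRT6-tg mice, whereas 8 of 8 T cell markers (15.4 to 51.6 CPM in WT and 5.34 to 8.50 CPM in SIRT6-tg males), 8 of 8 macrophage and dendritic cell markers (394 to 1207 CPM and 337 to 574 CPM), and 7 of 7 stellate cell markers (362 to 595 CPM and 248 to 339 CPM) were lower. Under TMM 9.68% of all tested genes were higher and 11.0% lower in SIRT6-tg males. Scaled by library size alone, 0 of the 15 hepatocyte genes were higher and 1 lower, where 0.973% of all genes were higher and 18.9% lower. Under that scaling all of the T cell, macrophage and dendritic cell, and stellate cell markers were again lower. The same held under scaling to these secreted proteins, which fixes the mean of their own log2 levels, and 17.7% of all genes were lower there. Of the remaining markers, under TMM, 3 of 5 B cell genes and 1 of 5 endothelial genes were lower and 0 of 5 cholangiocyte genes changed. No marker of any list was at 0. In females 0 markers passed the test, where 0.0278% of all genes did. The part of these markers in the differences described below was not tested, and in whole liver fewer cells of a type and less RNA per cell cannot be told apart.

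The promoters of 9 of the 10 genes were listed in RefSeq (GRCm38.p6), with 16 start sites among them, and were searched from 250 bases before to 50 bases after each start. The palindrome TTCNNNGAA, the same on both strands, is the known core of the STAT5 binding site and is close to the site of BCL6. It occurred in *Igfals*, *Cish*, and *Bcl6*, 3 of the 9 genes and 5 of the 16 starts, and in 8.3% of all 32851 promoters. The motif CAAAACA, searched on both strands and part of the known insulin response element bound by FoxO factors, occurred in *Igfbp1* and in 6.28% of all promoters. A match is a description of the letters and no evidence of binding. A stretch with matches is shown for 1 start of *Igfals*, *Cish*, and *Igfbp1* and for both starts of *Bcl6*, because these genes respond to the hormone or to insulin, or moved in the comparisons below. A further *Igfals* start had its match 236 bases before it and is not shown. Capitals mark the motif, and each is written 5′ to 3′ on the strand of its gene. The *Cish* stretch was in an annotated exon and is shown with few flanking bases, those of *Igfals* and of the downstream start of *Bcl6* were in introns of longer transcripts, and the others were upstream of the gene.
Igfals, chr17:24878123-24878214, plus strand: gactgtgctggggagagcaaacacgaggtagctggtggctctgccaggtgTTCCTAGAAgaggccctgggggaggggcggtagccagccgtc
Cish, chr9:107296654-107296683, plus strand: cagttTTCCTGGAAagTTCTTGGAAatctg
Bcl6 upstream start, chr16:23988912-23989020, minus strand: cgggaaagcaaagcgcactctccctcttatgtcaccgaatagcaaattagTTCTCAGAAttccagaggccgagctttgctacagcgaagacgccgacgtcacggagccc
Bcl6 downstream start, chr16:23981313-23981501, minus strand: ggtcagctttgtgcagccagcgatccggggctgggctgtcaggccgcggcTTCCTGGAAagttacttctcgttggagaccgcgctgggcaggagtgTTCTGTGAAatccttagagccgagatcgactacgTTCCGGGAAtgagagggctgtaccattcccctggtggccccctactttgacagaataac
Igfbp1, chr11:7197629-7197735, plus strand: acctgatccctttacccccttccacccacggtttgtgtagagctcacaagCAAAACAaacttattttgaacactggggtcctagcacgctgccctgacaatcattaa
The *Igfals* match shown lay 58 bases before its start, the upstream *Bcl6* match 118 bases, and the *Igfbp1* match 108 bases before. The pair of *Cish* matches began at the start site itself, separated by a short spacer, and the downstream *Bcl6* start had 3 matches.

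To compare the genes with each other, counts were divided by exon length and expressed as TPM, length-corrected shares on the same base as CPM, within 1 group at a time. *Igfbp2*, a carrier of IGF peptides, was the highest of the 10 genes in all 4 groups, with a median of 849 TPM in WT males and 483 TPM in WT females, and its range did not overlap that of the next gene. *Ghr* and *Igf1* followed in all 4 groups with overlapping ranges, at medians of 170 and 160 TPM in WT males and of 121 and 146 TPM in WT females. *Igfals* and *Igfbp1* came next, at 72.9 and 56.8 TPM in WT males, and their ranges overlapped in both WT groups. *Stat5b* was at a median of 22.8 TPM in WT males and 23.998 TPM in WT females. *Bcl6*, *Socs2*, and *Cish* lay lower, at 12.8, 8.09, and 4.56 TPM in WT males, with ranges that overlapped from one to the next. *Cux2* was last in males, at 0.134 TPM in WT mice, below the range of every other gene, and reached 7.92 TPM in WT females, where it overlapped *Socs2* and *Cish*. Exon length counts every annotated exon, so genes with long alternative exons are placed too low. TPM carries no TMM scaling, and medians are not compared between groups on it.

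**Figure D1:**
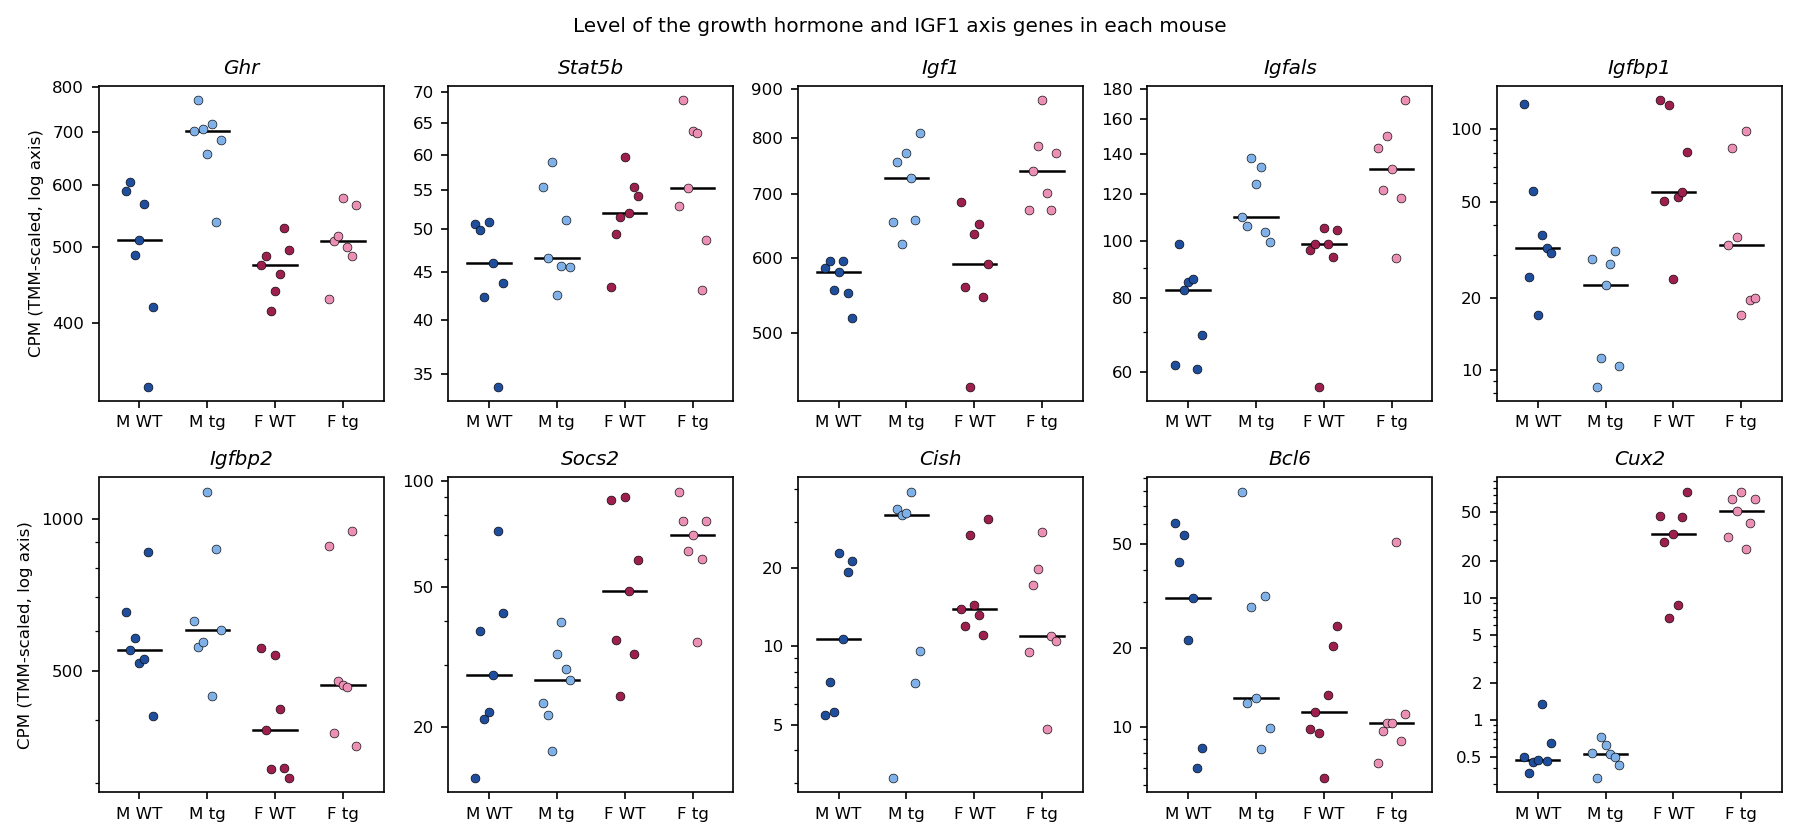
CPM scaled by TMM (log axis, a separate scale per gene) of the 10 genes in each of the 28 mice, for male (M) and female (F) WT and SIRT6-tg (tg) mice, with a bar at the median of 7. *Igf1* and *Igfals* of SIRT6-tg males lie above all WT males, at 620.4 to 810.3 CPM against 519 to 595 CPM and at 99.4 to 138 CPM against 60.8 to 98.7 CPM, and *Cux2* separates the sexes.

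In males, 3 of the 10 genes were higher and 0 lower in the transgenic mice, with a threshold of 0.05 on the adjusted p (edgeR quasi-likelihood test, Benjamini-Hochberg over all genes), where 9.68% of all tested genes were higher and 11.0% lower. These were *Ghr*, *Igf1*, and *Igfals*, the genes of the receptor, the hormone, and the subunit that keeps the hormone in circulation. The values are liver RNA, and protein was not measured here. The paper reports lower serum IGF1 in SIRT6-tg mice of both sexes, measured after an overnight fast, longer than the fast before livers were taken. Under TMM the *Igf1* RNA went the other way, a difference that passed edgeR's test in males only. In males it depended on the scaling, as given below. The median log2 fold change of the 10 genes was 0.18, and that of all genes was 0.06. In females 0 of 10 passed, where 0.0278% of all genes did. At an unadjusted p under 0.05, *Igf1*, *Igfals*, and *Igfbp2* were higher in females and 0 lower, against 2.48% of all genes higher, and DESeq2 called *Igf1*. The difference between the male and the female effect passed for 0 of the 10 genes with the same edgeR test, where 5.04% of all genes did. At an unadjusted p only *Ghr* did, and DESeq2 called none of them. A p that misses the threshold does not show that the groups were alike.

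*Ghr* (ENSMUSG00000055737.12, chr15:3317760-3583492, minus strand of GRCm38) encodes the growth hormone receptor. It was at 332 to 605 CPM (median 509.7) in WT males and at 537 to 769 CPM (median 704) in SIRT6-tg males. All but 1 of the 7 SIRT6-tg males lay above every WT male. Against WT, SIRT6-tg males had a log2 fold change of 0.44 (SE 0.11, edgeR adjusted p = 0.00303), a 1.36-fold higher level. In females the genotypes overlapped, with 414 to 529 CPM (median 474) in WT and 429 to 577 CPM (median 508) in SIRT6-tg mice, and a log2 fold change of 0.12 (SE 0.11, edgeR adjusted p = 1.00). The male log2 fold change was 0.33 above the female one (SE 0.15), with an unadjusted p of 0.0396 and an adjusted p of 0.239 in edgeR's test. *Ghr* was the only one of the 10 genes with an unadjusted p under 0.05 there, and 18.8% of all genes had one.

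*Stat5b* (ENSMUSG00000020919.11, chr11:100780731-100850724, minus strand) carries the signal of the receptor to the nucleus, mainly through phosphorylation of its protein, which RNA counts do not measure. Its level was 33.9 to 50.9 CPM (median 46.0) in WT males, 42.5 to 59.0 CPM (median 46.6) in SIRT6-tg males, 43.3 to 59.7 CPM (median 52.1) in WT females, and 43.1 to 68.7 CPM (median 55.3) in SIRT6-tg females. The genotypes overlapped in both sexes. The log2 fold change was 0.12 (SE 0.11, edgeR adjusted p = 0.456) in males and 0.11 (SE 0.11, edgeR adjusted p = 1.00) in females, and neither passed the test.

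*Igf1* (ENSMUSG00000020053.18, chr10:87858265-87937042, plus strand) encodes insulin-like growth factor 1. WT males were close together, at 519 to 595 CPM (median 580.3), and SIRT6-tg males lay at 620.4 to 810.3 CPM (median 727). The ranges did not overlap, which held for 2.6% of all genes in the direction of a higher level. For *Igf1* the male log2 fold change was 0.33 (SE 0.09, edgeR adjusted p = 0.00851), a 1.25-fold higher level. WT females ranged from 440.0 to 686 CPM (median 591) and SIRT6-tg females from 673 to 876 CPM (median 739), and a single WT female reached into the SIRT6-tg range. The female log2 fold change of 0.35 (SE 0.09) had an unadjusted p of 0.000565 and an adjusted p of 0.245 in edgeR's test, so it did not pass. DESeq2 gave it an adjusted p of 0.0375. The male and female effects differed by −0.02 on the log2 scale (SE 0.13, edgeR adjusted p = 0.967). The antisense transcript *Igf1os* lies within *Igf1* on the other strand but shares no exon base with it.

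*Igfals* (ENSMUSG00000046070.8, chr17:24865997-24882010, plus strand), whose promoter match is shown above, is made mainly by hepatocytes. It was at 60.8 to 98.7 CPM (median 82.5) in WT males and at 99.4 to 138 CPM (median 109) in SIRT6-tg males. The lowest SIRT6-tg male lay just above the highest WT male, so the ranges did not overlap. For *Igfals* the male log2 fold change was 0.58 (SE 0.13, edgeR adjusted p = 0.00217), a 1.49-fold higher level. In females it was at 56.7 to 105 CPM (median 98.6) in WT and 93.5 to 172 CPM (median 132) in SIRT6-tg mice. A single SIRT6-tg female lay within the WT range, and the other 6 lay above it. The female log2 fold change was 0.51 (SE 0.13, edgeR adjusted p = 0.278, unadjusted p = 0.000682), and the male effect exceeded it by 0.07 (SE 0.19, edgeR adjusted p = 0.900). The WT female at 56.7 CPM was far below its group, and without it the female log2 fold change was 0.42.

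**Figure D2:**
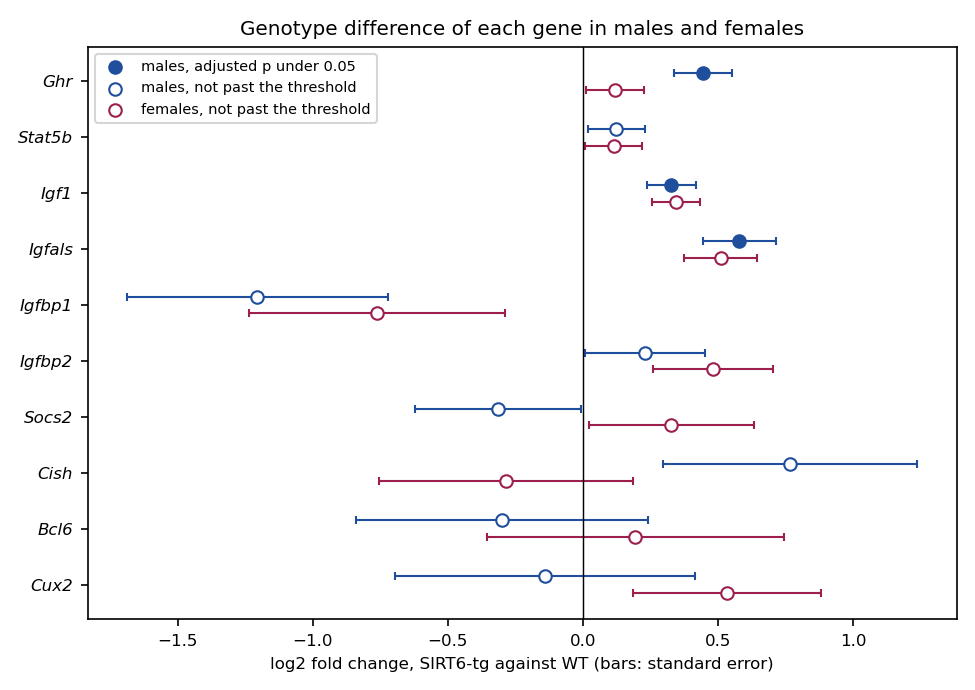
Log2 fold change of SIRT6-tg against WT mice (horizontal axis) of each gene in males (blue) and females (red), with bars of 1 standard error and filled points for an adjusted p under 0.05. *Ghr*, *Igf1*, and *Igfals* of the males are the filled points, at 0.44, 0.33, and 0.58, and the female points of *Igf1* and *Igfals* lie close by at 0.35 and 0.51.

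The 3 male differences depended on how the libraries were scaled. TMM factors were 1.06 to 1.17 in WT males and 0.821 to 0.993 in SIRT6-tg males. Scaled by library size alone, the log2 fold changes were 0.17 for *Ghr*, 0.04 for *Igf1*, and 0.30 for *Igfals*, and 0 of the 3 passed (edgeR adjusted p = 0.341, 0.810, and 0.147). Scaled to the 15 secreted hepatocyte proteins, they were 0.14, 0.01, and 0.28, and 0 of the 3 passed (edgeR adjusted p = 0.576, 0.965, and 0.279). These scalings moved the median of all genes in males from 0.06 to −0.22 and −0.25 on the log2 scale, and the split of all genes from 2089 higher and 2377 lower to 210 higher and 4083 lower and to 158 higher and 3823 lower. Any scaling of whole libraries moves a gene and that median alike, and the median lay below these genes by 0.39 for *Ghr*, 0.27 for *Igf1*, and 0.52 for *Igfals* under TMM. In females the log2 fold change of *Igf1* was 0.35 under TMM, 0.37 under library size alone, and 0.50 under hepatocyte scaling.

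**Figure D3:**
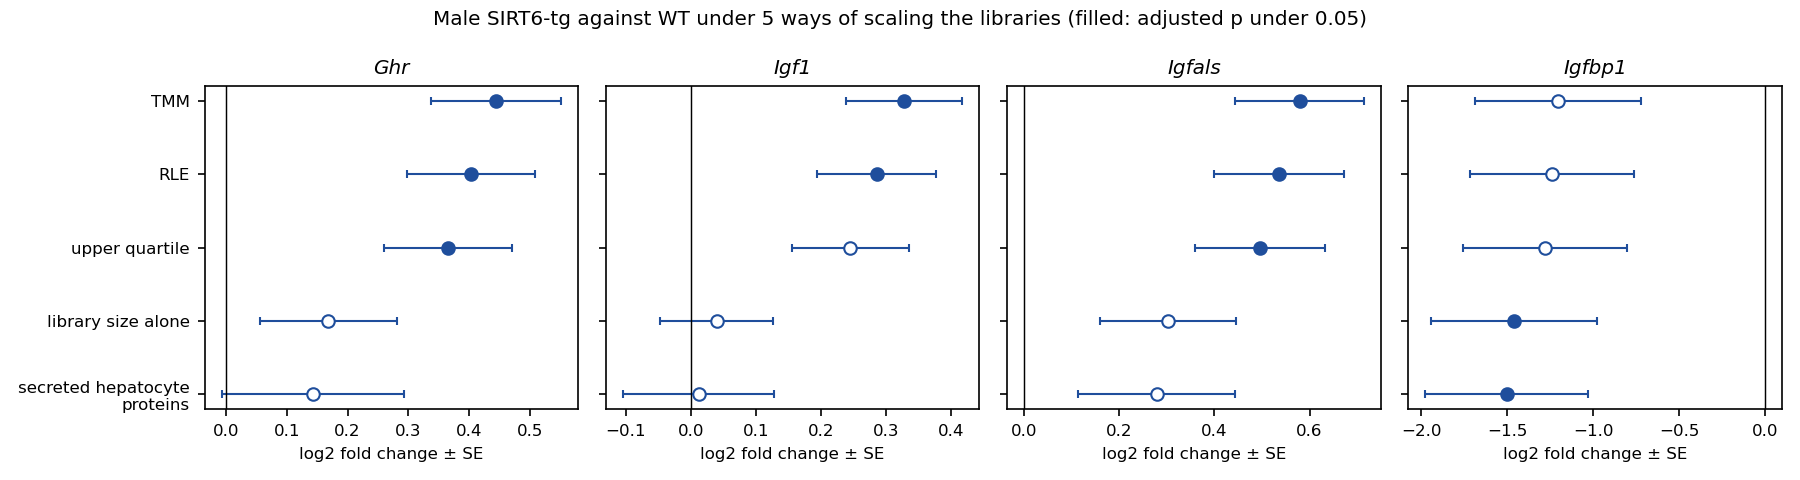
Log2 fold change (horizontal axis, bars of 1 standard error) of SIRT6-tg against WT males for *Ghr*, *Igf1*, *Igfals*, and *Igfbp1* under 5 scalings (rows), filled where the adjusted p was under 0.05. *Igf1* moves from 0.33 under TMM to 0.04 under library size alone and 0.01 under scaling to secreted hepatocyte proteins, while *Igfbp1* stays below 0 in every row.

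*Igfbp1* (ENSMUSG00000020429.7, chr11:7197782-7202546, plus strand) encodes a binding protein that rises in fasting and limits free IGF1, and its promoter stretch with the CAAAACA match is shown above. It was at 16.9 to 128 CPM (median 32.3) in WT males and at 8.53 to 31.3 CPM (median 22.5) in SIRT6-tg males. The WT males spread over a 7.56-fold range and the groups overlapped. The log2 fold change was −1.21 (SE 0.48), with an unadjusted p of 0.0192, where 15.4% of all genes were lower at an unadjusted p under 0.05, and an adjusted p of 0.0780 in edgeR's test. Under the other settings it lay between −1.50 and −0.96, and it passed under 4 of them, the scalings to hepatocyte proteins (edgeR adjusted p = 0.0240) and to library size alone (edgeR adjusted p = 0.0319), the filter of filterByExpr, and DESeq2. Without the WT male at 128 CPM it was −0.72 (edgeR adjusted p = 0.286). In females it was at 23.8 to 132 CPM (median 55.04) in WT and 16.9 to 98.2 CPM (median 32.998) in SIRT6-tg mice, with a log2 fold change of −0.76 (SE 0.48, edgeR adjusted p = 1.00).

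*Igfbp2* (ENSMUSG00000039323.18, chr1:72824503-72852474, plus strand), the most abundant of the 10 transcripts, was at 408 to 858 CPM (median 550.4) in WT males and 446 to 1129 CPM (median 603) in SIRT6-tg males. In females it was at 307 to 555 CPM (median 382) in WT and 355 to 943 CPM (median 469) in SIRT6-tg mice. The groups overlapped in both sexes, with the 2 highest SIRT6-tg females far above the rest. Between genotypes the log2 fold change was 0.23 (SE 0.22, edgeR adjusted p = 0.521) in males and 0.48 (SE 0.22, edgeR adjusted p = 0.839, unadjusted p = 0.0386) in females. WT males had more *Igfbp2* than WT females by 0.53 on the log2 scale (SE 0.22), with an unadjusted p of 0.0244 and an adjusted p of 0.126 in edgeR's test. An unadjusted p under 0.05 in that comparison was found for 25.1% of all genes.

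*Socs2* (ENSMUSG00000020027.18, chr10:95385362-95417180, minus strand) is induced by growth hormone and dampens the signal of its receptor. It was at 14.4 to 72.1 CPM (median 28.1) in WT males, 17.2 to 39.7 CPM (median 27.2) in SIRT6-tg males, 24.5 to 89.98 CPM (median 48.7) in WT females, and 34.9 to 92.9 CPM (median 70.1) in SIRT6-tg females. The genotypes overlapped in both sexes. Between genotypes it differed by a log2 fold change of −0.31 (SE 0.31, edgeR adjusted p = 0.527) in males and 0.33 (SE 0.31, edgeR adjusted p = 1.00) in females. Without the WT male at 72.1 CPM the male value was −0.017. The difference between these effects was −0.64 (SE 0.43, edgeR adjusted p = 0.457). WT males were 0.67 lower than WT females on the log2 scale (SE 0.31, unadjusted p = 0.0373, edgeR adjusted p = 0.165).

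*Cish* (ENSMUSG00000032578.7, chr9:107296026-107302784, plus strand), another early target of STAT5B, had a pair of TTCNNNGAA matches at its start. In WT males it was at 5.45 to 22.8 CPM (median 10.6). SIRT6-tg males fell apart, 4 of them at 31.8 to 39.2 CPM, above every WT male, and the other 3 at 3.12 to 9.60 CPM. Their SD of 1.42 on the log2 scale was the highest of the 10 genes in any group. The log2 fold change was 0.77 (SE 0.47, edgeR adjusted p = 0.274). Females had 11.03 to 30.9 CPM (median 13.9) in WT and 4.84 to 27.4 CPM (median 10.99) in SIRT6-tg mice, with a log2 fold change of −0.29 (SE 0.47, edgeR adjusted p = 1.00). *Cish* shares exon bases on the other strand with *Gm17040* and *Gm17041*, which held 236 and 0 counts over all 28 libraries, and the strand setting of the counting is not given in the sources used here.

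*Bcl6* (ENSMUSG00000022508.5, chr16:23965052-23988852, minus strand) varied more between mice of a group than most genes. In WT males it ran from 6.95 to 60.3 CPM (median 31.3), an 8.67-fold range, and in SIRT6-tg males from 8.25 to 79.4 CPM (median 13.0). In WT females it ran from 6.39 to 24.3 CPM (median 11.4), and 6 of the 7 SIRT6-tg females lay at 7.29 to 11.3 CPM with the other at 50.8 CPM. The SD of log2 CPM was 0.66 to 1.26 in the 4 groups, against a median of 0.23 to 0.25 over the 11326 genes with a mean of at least 50 counts. The log2 fold change was −0.30 (SE 0.54, edgeR adjusted p = 0.761) in males and 0.19 (SE 0.55, edgeR adjusted p = 1.00) in females, and without the SIRT6-tg female at 50.8 CPM the latter was −0.50. Without 1 library the male value ran from −0.89, without the SIRT6-tg male at 79.4 CPM, to −0.098, without WT male replicate 1. WT males had 2.37-fold the level of WT females, a log2 fold change of 1.25 (SE 0.55, unadjusted p = 0.0327) with an adjusted p of 0.151 in edgeR's test. *Gm37419*, on the other strand, shares 21 exon bases with *Bcl6* and held 97 counts over all libraries.

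*Cux2* (ENSMUSG00000042589.18, chr5:121856366-122050102, minus strand) was the only one of the 10 genes past the threshold between WT males and WT females, where 12.4% of all genes passed and 5.71% were lower in males. It was at 0.366 to 1.36 CPM (median 0.467) in WT males and 6.81 to 73.8 CPM (median 33.3) in WT females, with no overlap, as for 1.64% of all genes in that direction. In males these levels rest on 11 to 27 counts per library. Males differed from females by a log2 fold change of −5.89 (SE 0.47, edgeR adjusted p = 7.59e-10), a 59.2-fold lower level. In the same comparison 6 of 15 hepatocyte genes were lower and 8 of 8 T cell markers higher in males, where 6.66% of all genes were higher. The part of these markers in the result was not tested. SIRT6-tg mice had the same order, with 0.333 to 0.726 CPM (median 0.525) in males and 25.3 to 73.6 CPM (median 51.8) in females. Genotypes overlapped within each sex, with log2 fold changes of −0.14 (SE 0.56, edgeR adjusted p = 0.902) in males and 0.53 (SE 0.35, edgeR adjusted p = 1.00) in females. The WT females spread over a 10.8-fold range, and all SIRT6-tg females lay above the 2 lowest of them.

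The genes were also compared from mouse to mouse, after the mean of each group had been removed. Of 7 pairs tested, *Socs2* and *Bcl6* had the strongest relation. Mice with more *Socs2* than their group had less *Bcl6*, with a Pearson r of −0.61 over 28 mice (permutation test, two-sided, p = 0.00083, adjusted over the 7 pairs p = 0.00581) and a Spearman rho of −0.57 (permutation p = 0.00305, adjusted p = 0.0213). Without the 2 mice farthest from the median in *Socs2*, r was −0.49. Within the groups of 7, r was −0.81 in WT males, −0.48 in SIRT6-tg males, −0.29 in WT females, and −0.91 in SIRT6-tg females. Without the SIRT6-tg female at 50.8 CPM of *Bcl6* it was −0.46 over the other 6 of that group and −0.55 over 27 mice, an alternative chosen after the data were seen. *Igf1* and *Ghr* had an r of 0.39 (permutation p = 0.00943, adjusted p = 0.0330) and a rho of 0.36 (permutation p = 0.0482, adjusted p = 0.169), and r without 2 mice was 0.39. *Igf1* and *Igfals* had an r of 0.44 (permutation p = 0.0442, adjusted p = 0.0804) and a rho of 0.26 (permutation p = 0.204, adjusted p = 0.285), which did not hold up after adjustment. By sex, r of this pair was 0.0053 in males and 0.65 in females. *Igf1* with *Socs2* (r 0.40), *Socs2* with *Cish* (r 0.26), *Bcl6* with *Cux2* (r 0.04), and *Igfbp1* with *Igfbp2* (r −0.02) had adjusted permutation p values of 0.0804, 0.227, 0.908, and 0.908. For *Igf1* with *Socs2*, r was 0.019 in males and 0.66 in females.

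**Figure D4:**
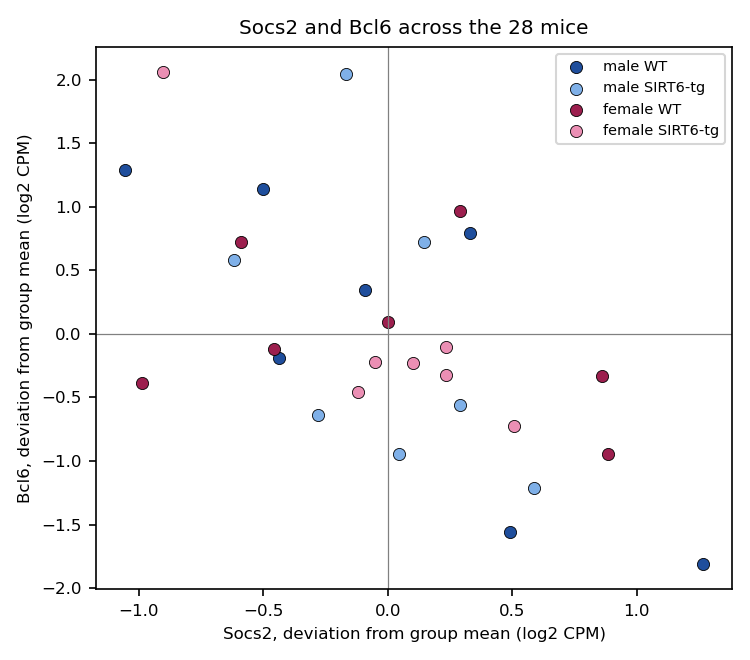
Deviation of each mouse from its group mean in log2 CPM, *Socs2* on the horizontal and *Bcl6* on the vertical axis, coloured by group. The points run from upper left to lower right (r −0.61 over 28 mice), and the female SIRT6-tg mouse with 50.8 CPM of *Bcl6* lies at the upper left.

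Among 11326 genes, those whose deviations followed each gene most closely over the 28 mice were named as a description without a test. *Cish* followed *Myc* with an r of 0.91, *Gm7652* with 0.86, and *Foxq1* with 0.84. *Ghr* had *Fbxo3* (r 0.89), *Ppm1k* (0.87), and *Dpyd* (0.87), and *Igf1* had *Ugt2a3* (0.71), *Fxr1* (0.64), and *Ces1b* (0.64). *Igfals* was nearest to *S1pr1* (0.71) and *Itga6* (0.68), and *Stat5b* to *C130074G19Rik* (0.82), *Stra6l* (0.82), and *Stard13* (0.80). For *Socs2* the nearest were *Casp1* (0.71), *Plcl2* (0.70), and *Snx6* (0.69). For *Bcl6* they were *Prox1* (0.78), *Atxn1* (0.76), and *Slc19a2* (0.72). *Igfbp1* followed *Irf2bp2* (0.84), *Btg2* (0.82), and the immediate early gene *Nr4a1* (0.78), and *Igfbp2* followed *Ppp2cb* (0.85), *Mterf3* (0.84), and *Mob2* (0.84). *Cux2* was nearest to *Trim24* (0.67), *Fam84b* (0.63), and *Sult2a2* (0.62). The libraries share their depth and their scaling, which enter every one of these values.

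The wider pathway was described by lists. Of 17 further genes of growth hormone receptor signalling, 4 were lower and 0 higher in SIRT6-tg males, where 11.0% of all genes were lower and 9.68% higher, with a median log2 fold change of −0.07. Among them were *Socs1*, an inhibitor of cytokine receptors (mean 3.81 CPM in WT and 0.611 CPM in SIRT6-tg males, log2 fold change −2.62, SE 0.26, edgeR adjusted p = 2.35e-08), and the phosphatase gene *Ptpn1* (36.6 and 25.7 CPM, −0.51, SE 0.10, edgeR adjusted p = 0.000464). *Socs1* is also expressed in immune cells, whose markers were lower in the same mice, and their part in its values was not tested. Between the male and the female log2 fold change of *Socs1* the difference was −2.31 (edgeR adjusted p = 0.000337). With the scaling by library size alone and to hepatocyte proteins 7 and 8 of the 17 were lower, where 18.9% and 17.7% of all genes were. In females 0 of the 17 passed. Between WT males and WT females, 4 were higher in males, among them *Socs1* (2.01) and *Socs7* (0.37), and 1 was lower, the prolactin receptor gene *Prlr* (83.5 against 358 CPM, log2 fold change −2.10, edgeR adjusted p = 3.92e-09). Of all genes, 6.66% were higher and 5.71% lower in that comparison.

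Of 13 further genes of the IGF system, receptors, binding proteins, and their proteases among them, 12 could be tested, as *Pappa2* had no more than 3 counts in any library. None of the 12 passed edgeR's test in any of the 4 comparisons under TMM, whereas in males 4 were lower under library size alone and 5 under scaling to hepatocyte proteins, where 18.9% and 17.7% of all genes were. With 2 surrogate variables 1 was higher and 3 lower, where 20.7% and 13.8% of all genes were. Lower were 2 with each sex fitted separately, 1 with upper-quartile scaling, and 1 with DESeq2, beside 11.2%, 12.3% and 12.2% of all genes. At an unadjusted p, 1 was higher and 3 lower in SIRT6-tg males, 0 changed in females, and their median log2 fold change was −0.38 in males and −0.03 in females, against 0.06 and 0.003 over all genes. Of 12 genes of insulin and FoxO signalling, only *Srebf1*, the gene of a lipogenic transcription factor, was higher in SIRT6-tg males (182 and 287 CPM, log2 fold change 0.66, SE 0.15, edgeR adjusted p = 0.00228), which no longer passed under library size alone or hepatocyte scaling, and 0 passed in females. Of all genes, 9.68% were higher in SIRT6-tg males under TMM. *Irs2*, an insulin receptor substrate that FoxO factors turn on, was lower in WT males than in WT females (24.1 and 42.5 CPM, −0.82, edgeR adjusted p = 0.0204), which passed in 25 of the 28 fits without 1 library and not under library size alone or hepatocyte scaling.

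Liver genes known to follow the sex pattern of growth hormone were compared as well. Of 17 male-biased genes, 16 were higher in WT males than in WT females, with *Hsd3b5*, *C6*, and *Elovl3* in front, and of 21 female-biased genes 19 were lower in males. Of all genes, 6.66% were higher and 5.71% lower in WT males. In SIRT6-tg males 7 of the 17 male-biased genes were higher than in WT males and 0 lower (median log2 fold change 0.69), beside the 9.68% and 11.0% of all genes, and 6 were higher under library size alone and under hepatocyte scaling, with medians of 0.41 and 0.39. With these scalings 0.973% and 0.732% of all genes were higher, and 18.9% and 17.7% lower. *Hsd3b5*, a steroid dehydrogenase gene of the male liver, was at 81.9 and 218 CPM (log2 fold change 1.41, edgeR adjusted p = 0.000285), and the urinary protein gene *Mup3*, whose reads near-identical family members may share, at 5648 and 10830 CPM (0.94, edgeR adjusted p = 0.000538). *Moxd1*, also among the 7, had 0 to 2 counts in WT males and 1 to 407 counts in SIRT6-tg males. It was the gene of this list that did not pass between WT males and WT females (0 to 2 counts in both, log2 fold change 0.42, edgeR adjusted p = 0.938). Of the 21 female-biased genes, 4 were higher and 1 lower in SIRT6-tg males, where 9.68% and 11.0% of all genes were. Under library size alone 3 were higher and 4 lower, and under hepatocyte scaling 2 and 3, beside the shares given for those scalings. They included the cytochrome genes *Cyp2c40* (2 to 29 counts in WT and 18 to 329 in SIRT6-tg males), *Cyp2c69* (0 to 9 and 13 to 212), and *Cyp2b10* (2.91 and 7.37 CPM), with *Cyp2a4* lower (10.5 and 2.98 CPM, passing in 22 of the 28 fits without 1 library), and the mean levels of all 4 in SIRT6-tg males lay below those of both female groups. In SIRT6-tg females 0 of the 17 male-biased genes passed, and of the female-biased genes *A1bg* (66 to 2737 counts in WT and 2708 to 26953 in SIRT6-tg mice) and *Cyp3a16* (4 to 18 and 12 to 1321 counts) were higher, both with an edgeR adjusted p of 0.0202. They passed in 23 and 22 of the 28 fits without 1 library, and in neither case with the replicate block or with each sex fitted separately. *Cyp3a16* was not among the genes lower in WT males than in WT females (0.253 against 0.430 CPM, log2 fold change −0.79, edgeR adjusted p = 0.701). The 10 axis genes and these lists share their libraries, so the values stand side by side.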

How the data were processed

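Liver RNA of 28 mice was sequenced by the authors as single-end NEBNext Ultra libraries on an Illumina HiSeq instrument. Per the methods the authors aligned reads with STAR 2.5.0a to mm10 and counted them per gene with HTSeq-count, and they deposited raw counts without normalization. The strand setting is not given in the sources used here. Groups came from the labels, and 0 columns were left without a sample. Library totals were 18758863 to 35393069 counts, and no pair of libraries in a group agreed within sampling noise (lowest chi-square per gene 15.8). Counts cover counting error only.

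Features were matched to symbols and coordinates of Gencode annotation of GRCm38. Genes with a mean of at least 0.5 counts after DESeq2's size factors were kept, 21583 in all. After TMM scaling, edgeR 4.0.16 in R 4.3.3 fitted a robust quasi-likelihood model to the 4 groups at once, followed by its F-test and Benjamini-Hochberg adjustment over all genes. A gene passed at an adjusted p under 0.05. Levels are CPM, and log2 CPM for deviations used a prior count of 2. Correlations were tested with 100000 permutations of mice within groups in SciPy 1.17.1. The test was checked on simulated data in which a small set of genes changed, evenly up and down. That setting does not probe the choice of scaling. Alternatives were RLE, upper-quartile and library-size scaling, scaling to secreted hepatocyte proteins, filterByExpr, no filter, a replicate block, 2 surrogate variables (sva 3.50.0), separate fits of each sex, DESeq2 1.42.0, and each library left out in turn, and for correlations a prior count of 0.5.

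The 10 genes and the gene lists were chosen with earlier results of these data known. All 10 were named, and from each list up to 3 genes per direction and comparison with the lowest adjusted p, and for each of the 10 the 3 genes with the highest correlation among those with a mean of at least 50 counts. Names outside this rule were *Pappa2*, overlapping genes and *Sirt6*. Some genes that this rule names are not reported here.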

Additional observations from a re-analysis of the deposited data

Results flagged for a closer look

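A mouse that stood far from its group was sought among the 40 sets of 7 log2 CPM values, 10 genes in 4 groups. It was marked where its gap to the nearest mouse, as a share of the range, exceeded Dixon's critical value for 7 samples at 95%. Gaps and ranges are on the log2 scale, and on plain CPM the shares differ. Chance marks about 1 in 20 such sets, and 3 of the 40 were marked. The lowest WT female of *Igfals*, replicate 3, at 56.7 CPM, had a gap of 0.813 of the range. The highest SIRT6-tg female of *Bcl6*, replicate 5, at 50.8 CPM, had a gap of 0.777. The highest WT male of *Cux2*, replicate 5, at 1.36 CPM, had a gap of 0.585. The test of a difference in genotype effect between the sexes passed for 0 of the 10 genes, where 5.04% of all genes passed. That does not show that the effects were alike.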

How the results depend on the processing

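Under library size alone and under scaling to secreted hepatocyte proteins, 0 of the 10 genes were higher in SIRT6-tg males, where TMM gave 3. Of all genes, 0.973% and 0.732% were higher there, against 9.68% under TMM. Under these 2 settings, filterByExpr and DESeq2, 1 gene (*Igfbp1*) was lower, where TMM gave 0. The shares of all genes lower were 18.9%, 17.7%, 14.7% and 12.2%, and 11.0% under TMM. *Igf1* in males also missed the threshold under upper-quartile scaling (log2 fold change 0.24, edgeR adjusted p = 0.0618) and without WT male replicate 7 (0.27, edgeR adjusted p = 0.0516), and the count of genes higher in males was 2 to 3 over the 28 fits without 1 library. In females 1 gene (*Igf1*) was higher with DESeq2, where 0.111% of all genes were. Between WT males and females 1 gene (*Igfbp2*) was higher under library size alone, hepatocyte scaling and 2 surrogate variables. Of all 21583 genes, 3657, 4972 and 2546 were higher in WT males there, against 1437 under TMM. Lower were 2 genes (*Cux2* and *Socs2*) under 2 surrogate variables and without WT male replicate 6, with a range of 1 to 2 without 1 library. Of all genes, 2436 and 1093 were lower in WT males in these fits, against 1232 under TMM. The pair *Igf1* and *Igfals* passed under library size alone (r 0.52, permutation adjusted p = 0.0278) and hepatocyte scaling (r 0.67, permutation adjusted p = 0.00143). The cause of these changes was not tested beyond the shift of the median given with the scalings.

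Under library size alone and hepatocyte scaling, log2 fold changes in males turned negative for *Stat5b* (−0.15 and −0.19) and *Igfbp2* (−0.066 and −0.10). Without WT male replicate 5 that of *Cux2* was 0.12, and over the fits without 1 library it ran from −0.24 to 0.12. In females *Bcl6* ran from −0.50 to 0.40. The male-female difference of the effect changed sign for *Ghr* under hepatocyte scaling (−0.11), for *Igfals* under upper-quartile (−0.0031), library size (−0.22) and hepatocyte scaling (−0.37), and for *Stat5b* under RLE (−0.033), upper-quartile (−0.058), library size (−0.28) and hepatocyte scaling (−0.42) and DESeq2 (−0.033). Without 1 library that difference ran from −0.073 to 0.041 for *Igf1*, from −0.00098 to 0.16 for *Igfals*, from −0.055 to 0.063 for *Stat5b*, from −1.09 to 0.20 for *Bcl6*, and from −0.65 to 0.042 for *Igfbp1*. The WT sex difference changed sign under library size alone for *Igf1* (0.15), and under hepatocyte scaling for *Igf1* (0.24), *Igfals* (0.022) and *Stat5b* (0.068), and for *Igf1* it ran from −0.10 to 0.0059 without 1 library.

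Replicate numbers did not pair the mice. Same-numbered mice of different groups had correlations of their deviations between −0.68 and 0.57, 17 of 42 were above 0.1, and 3 of 28 libraries matched best with their own number. With the replicate block 3 of the 10 genes were higher in males and 0 in females, and over all genes 1936 were higher and 2271 lower in males, against 2089 and 2377 without it. Library size alone gave 210 higher and 4083 lower in males, hepatocyte scaling 158 and 3823, upper-quartile scaling 942 and 2649, RLE 1395 and 2511, and 2 surrogate variables 4459 and 2980, and in females DESeq2 gave 24 and 18 against 5 and 1. *Cux2* in males rests on 8 to 27 counts per library, which limits its male comparison.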
